A study of Drosophila melanogaster with 18 samples.

Results

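The genes described here encode the proteins of the small (40S) ribosomal subunit in *Drosophila melanogaster*. They were chosen as all genes whose symbol begins with RpS followed by a digit in the deposited expression tables, which gave 38 of 17575 genes. *sta* and *Rack1*, which encode further proteins of the same subunit under other names, do not match that rule and are given apart. The RNA came from the fat body, the larval organ of storage and metabolism, pooled from male larvae late in the third instar, and all groups carried the driver *dcg-Gal4*, which switches on UAS transgenes in that organ. Of 18 libraries in 6 groups of 3, 12 were poly(A) RNA-seq: control (*dcg-Gal4/+*), *4EHP* RNAi (*dcg-Gal4/uas-4EHP RNAi*), *lacZ* RNAi (*dcg-Gal4/uas-lacZ RNAi*) and *NELF-E* RNAi (*dcg-Gal4/uas-NELF-E RNAi*). The other 6 were TRIBE libraries, in which the catalytic part of the editing enzyme ADAR was fused to 4EHP (4EHP-ADAR) or to a mutant 4EHP that cannot bind the mRNA cap (4EHP W114A-ADAR). Each gene was targeted with 1 RNAi line, and crosses for *NELF-E* RNAi were kept at 20 °C and others at 25 °C. At which of these the sequenced *lacZ* RNAi larvae were kept is not given in the sources used here, so the part of rearing temperature in that comparison was not tested.

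The small subunit binds the mRNA, scans to the start codon with the initiation factors and reads each codon against the tRNA. Its proteins sit on the 18S ribosomal RNA in a head and a body, with the mRNA running through the neck between them. 4EHP is a cap-binding protein related to the initiation factor eIF4E. It is reported to repress translation of many mRNAs that it binds, and the study concludes that it promotes *NELF-E* expression. NELF-E is a subunit of the negative elongation factor, which holds RNA polymerase II in a paused state near promoters. The comparisons ask how the RpS transcripts stood after *4EHP* RNAi against control and after *NELF-E* RNAi against *lacZ* RNAi, and whether 4EHP-ADAR edited them more than its mutant. Over all 6 libraries, limma in its main setting and edgeR called no transcript of the family after *4EHP* RNAi. DESeq2 called *RpS7* lower there. All of these fits called *RpS2* lower after *NELF-E* RNAi. Other limma settings gave other counts, which are given below. Within the family, *RpS7* lay furthest below the others after *4EHP* RNAi and *RpS2* after *NELF-E* RNAi, *RpS12* lay below in both, and *RpS20* lay below after *4EHP* RNAi and above after *NELF-E* RNAi. No editing site in the family was called.

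The tables give CPM, the reads of a gene scaled to a common total in each library. The libraries held between 59919651 and 92604208 reads on genes in the *4EHP* comparison and between 120900452 and 173606468 in the *NELF-E* comparison. Every library held from 9 to 370797 reads on each of the 38 transcripts, so counting error is small beside the spread between libraries. Control replicate 3 stood apart, with 7853 transcripts over 1 CPM against 10370 to 10719 in the 5 libraries it was compared with, and *lacZ* RNAi replicate 2 had 9335 against 9866 to 10940. Testis markers summed to 35.95 CPM in control replicate 3 and 397 CPM in *lacZ* RNAi replicate 2, against 891 to 2761 CPM in the other 10 libraries. The targeted transcripts overlapped between their groups, *eIF4EHP* with 26.6, 21.3 and 5.55 CPM in controls and 21.4, 14.8 and 18.1 CPM in *4EHP* RNAi, and *Nelf-E* with 38.6, 12.8 and 20.7 CPM in *lacZ* RNAi and 33.6, 34.96 and 32.3 CPM in *NELF-E* RNAi, so every direction given below rests on the labels. In bulk RNA, fewer cells of a type and less RNA per cell cannot be told apart.

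In the BDGP6.54 annotation the 38 genes were spread over the genome, with 6 on chromosome arm 2L, 7 on 2R, 4 on 3L, 12 on 3R, 8 on X and 1, *RpS3A*, on chromosome 4. They were short, with a median of 863 bases of exon against 1734 for all protein-coding genes, and encoded proteins of 56 residues (*RpS29*) to 268 residues (*RpS3A*). A small nucleolar RNA (snoRNA), a guide for chemical marks on ribosomal RNA, lay inside 12 of the 38 genes on the same strand (31.6%), against 84 of 13986 protein-coding genes (0.601%). *RpS7* held 7, *RpS16* held 5 and *RpS12* and *RpS20* held 2 each. Exons of 10 members overlapped another gene, with 512 bases shared between *RpS9* and an antisense RNA, and whether the counting used the strand is not given in the sources used here. *RpS7* lay at 3R:30206447-30209020, *RpS2* at 2L:9896265-9897552, *RpS12* at 3L:13023352-13024762 and *RpS20* at 3R:20822181-20823356, and none of them but *RpS20*, with 44 bases shared with *CG17272*, overlapped another exon.

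Between members, levels were compared as CPM per kb of exon. In controls *RpS27A*, made as a fusion of ubiquitin and a ribosomal protein, led at 2343 ± 381 (SD, n = 3), followed by *RpS18* in the head at 1928 ± 548. The ranges of both over the control libraries overlapped, so their order is not resolved there. In *lacZ* RNAi *RpS27A* was at 2449 ± 486 and *RpS18* at 1665 ± 272 (SD, n = 3). In both control groups, 31 transcripts lay above the remaining 7, which are the lower-expressed forms of genes that share a number. The lowest of the 31 was *RpS14a*, at 393 ± 179 in controls and 337 ± 55.0 in *lacZ* RNAi. The lowest of all were *RpS28a* at 6.83 ± 5.68, *RpS28-like* at 28.1 ± 23.9 and *RpS15Ab* at 31.9 ± 4.61 CPM per kb in controls.

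**Figure D1:**
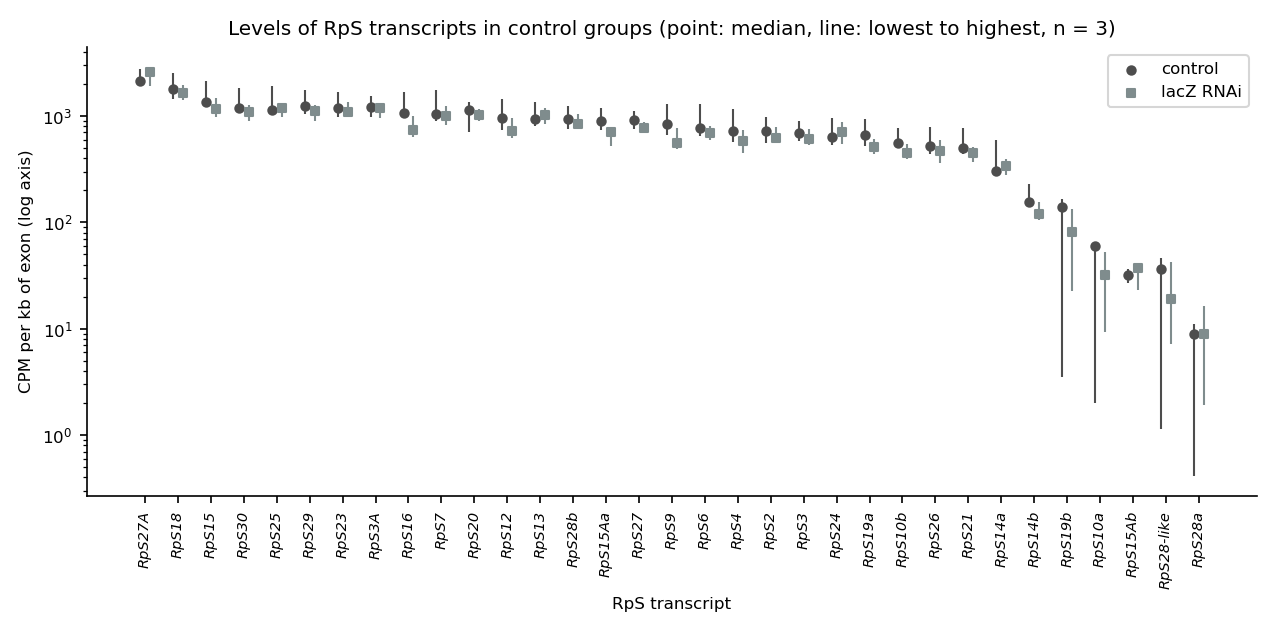
CPM per kb of exon on a log axis for 33 RpS transcripts in the control and *lacZ* RNAi libraries (point: median, line: lowest to highest of 3 libraries). A band of 27 transcripts runs from *RpS27A* down to *RpS14a*, and 6 lower-expressed forms drop away on the right, 4 of them with long lines.

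The whole family took a share of the reads that overlapped between groups in both comparisons. It was 2.36%, 2.78% and 4.03% of reads in control replicates 1, 2 and 3 and 3.82%, 5.36% and 4.35% in *4EHP* RNAi replicates 1, 2 and 3. It was 2.08%, 2.47% and 2.96% in *lacZ* RNAi and 2.61%, 3.07% and 3.32% in *NELF-E* RNAi. The control with the highest share was replicate 3, the library that stood apart.

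Whether the family as a whole moved after *4EHP* RNAi depended on the scaling and on single libraries. The limma fit used log2 of scaled CPM (each library divided by its median-of-ratios factor) plus 1, over transcripts averaging 5 CPM or more, which kept 37 members (all but *RpS28a*). On this log2(CPM + 1) scale the fold changes of low transcripts come out too small. The median log2 fold change of the 37 was 0.13, against 0.15 for all 8584 transcripts tested. With CPM as deposited it was 0.72, against 0.68 for all transcripts. With DESeq2 (Wald test, recovered reads) it was −0.20, without control replicate 1 it was −0.32 and without control replicate 3 it was 0.69. Measured against the median of all transcripts, the family lay between −0.41 (without control replicate 1) and 0.70 (without control replicate 3), below it in 10 of 18 settings.

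After *NELF-E* RNAi the family's median was −0.47, against −0.05 for all 8371 transcripts tested. With CPM as deposited both moved up, to 0.29 and 0.65. Against the median of all transcripts the family was lower in 18 of 18 settings, by 0.42 in the fit described and from −0.84 (without *lacZ* RNAi replicate 1) to −0.20 (without *lacZ* RNAi replicate 2). A scaling factor moves both medians nearly together, and all settings draw on the same libraries. The count of settings therefore says little about how firm the shift is. The large subunit transcripts (53 tested) had a median of −0.46 in the same fit and 0.10 after *4EHP* RNAi. The log2 fold changes of the RpS transcripts were less widely spread than those of all transcripts. Their interquartile range was 0.40 after *4EHP* RNAi and 0.38 after *NELF-E* RNAi, against 1.21 and 0.87. No set of transcripts with like levels was compared, so the part of level in this narrow spread was not tested.

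**Figure D2:**
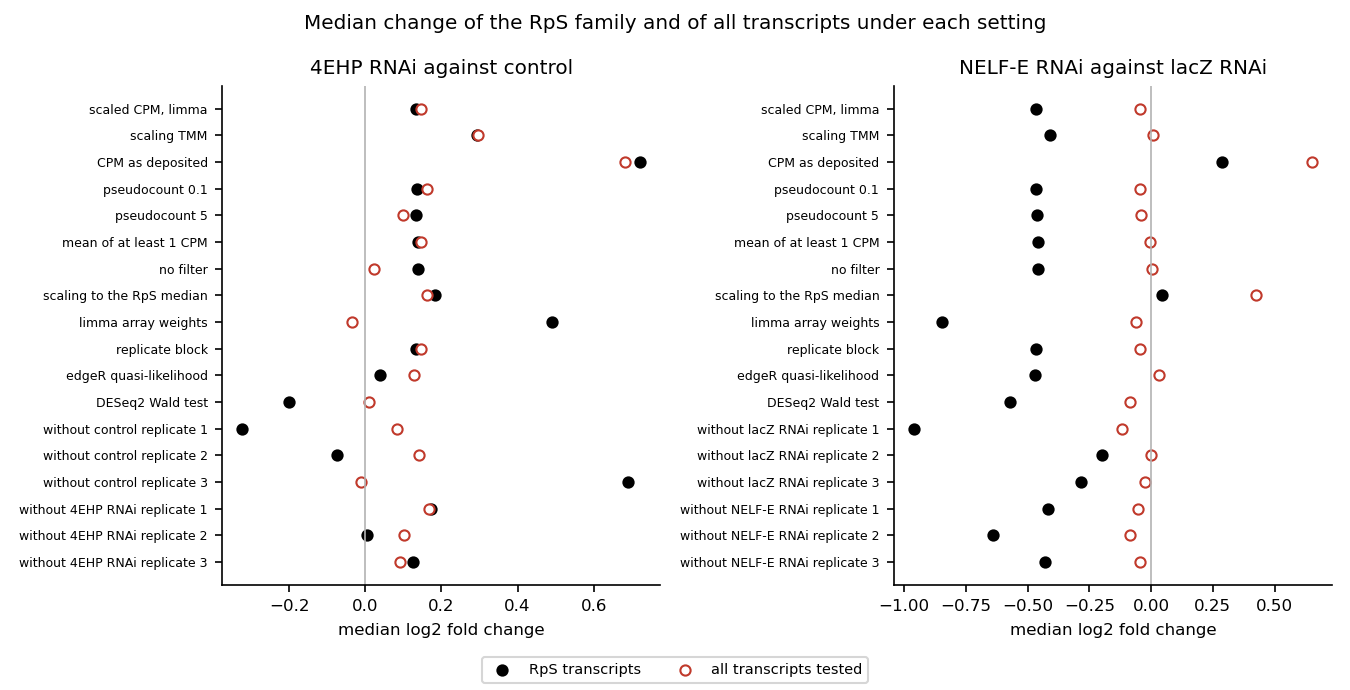
Median log2 fold change of the RpS transcripts tested (filled, 37 or 38 by setting) and of all transcripts tested (open). The top row is limma on scaled CPM, with each alternative below it. After *4EHP* RNAi the filled points run from −0.32 to 0.72 and cross the open ones, and after *NELF-E* RNAi the filled point lies to the left of the open one in each row.

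Of the 37 transcripts tested after *4EHP* RNAi, limma called 0 lower and 0 higher at an adjusted p under 0.05, where 0% of all transcripts were called in either direction. At an unadjusted p under 0.05 there was 1 lower, *RpS7*, and 0 higher, while 9.9% of all transcripts had such a p in either direction. edgeR's quasi-likelihood test on the recovered reads called 0, and the DESeq2 Wald test called 1 lower, *RpS7*, where it called 2.15% of all transcripts lower and 2.42% higher. Without control replicate 3, limma called *RpS7* lower and *RpS21* higher, where it called 1.36% of all transcripts lower and 5.25% higher. Scaling to the RpS median called *RpS7* lower (0.326% of all transcripts lower, 0.268% higher), and array weights called *RpS7* lower and 6 members higher, where 12.4% of all transcripts were lower and 13.1% higher. On scaled CPM, all 3 *4EHP* RNAi libraries lay below all 3 controls for 1 of 37 members, again *RpS7*, and above them for 0, against 11% and 7.78% of all transcripts. With CPM as deposited the groups did not overlap for 1 member lower and 15 higher, against 5.07% and 23.5% of all transcripts.

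After *NELF-E* RNAi, limma called 1 of 37 lower, *RpS2*, where 2.45% of all transcripts were called lower, and 0 higher, where 1.99% were called higher. A count of 1 of 37 is near that background share. At an unadjusted p under 0.05 there were 3 lower and 0 higher, a smaller share than the 19.1% of all transcripts with such a p in either direction. edgeR called *RpS2* alone, lower (2.44% of all transcripts lower, 2.23% higher), as did scaling to the RpS median (2.01% lower, 1.68% higher). DESeq2 called 3 lower (*RpS2*, *RpS12* and *RpS9*), where it called 9.43% of all transcripts lower and 3.31% higher. Array weights called 25 lower and 1 higher, where 30.2% of all transcripts were lower and 24.1% higher, and with no filter 0 were called lower, where 0.587% were. On scaled CPM the groups did not overlap for 3 members, all lower, the same 3, against 17.7% of all transcripts lower and 8.1% higher. With CPM as deposited they did not overlap for 2 members lower and 8 higher, against 7.39% and 19.5%. The count rested on single libraries, being 18 lower without *lacZ* RNAi replicate 1 (23.8% of all transcripts), 1 without replicate 2 (1.72%) and 0 without replicate 3 (0.555%). It was also 0 without *NELF-E* RNAi replicate 1 (1.13%), 2 (1.36%) or 3 (0.817%).

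Since scaling moves the whole family, each transcript was also set against the family within its own library. The departure is the log2 value of a transcript minus the median of the 37 in that library, as the difference between group means with its standard error. A factor that multiplies a whole library nearly cancels in it, less so for low forms, on which the added 1 weighs. After *4EHP* RNAi, 28 of 37 departures lay within 0.5 of 0, and after *NELF-E* RNAi 29 of 37. The exact two-sided permutation test of 3 libraries against 3 cannot give a p below 0.1, and every departure whose groups did not overlap had that p.

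After *4EHP* RNAi the groups did not overlap for 6 members below the family (16.2%, against 9.09% of all transcripts taken against the same median) and 11 above it (29.7%, against 7.15%). Those below included *RpS7*, *RpS20*, *RpS12*, *RpS6* and *RpS2*. Those above included *RpS21*, *RpS14a*, *RpS30*, *RpS3A*, *RpS27*, *RpS15Aa*, *RpS4*, *RpS25* and *RpS26*. After *NELF-E* RNAi 10 lay below (27.0%, against 8.9%) and 8 above (21.6%, against 7.81%). Those below included *RpS2*, *RpS12*, *RpS9*, *RpS14b*, *RpS6*, *RpS15*, *RpS10b*, *RpS28b* and *RpS15Aa*. Those above included *RpS20*, *RpS27*, *RpS21*, *RpS30*, *RpS14a*, *RpS26* and *RpS7*. Members of these 4 lists that are described nowhere else are named because of their values. A narrow spread between libraries lets small departures clear the overlap, such as −0.12 for *RpS15Aa* after *NELF-E* RNAi and 0.19 for *RpS26* after *4EHP* RNAi. The shares over all transcripts are not a like-for-like background. Taking members against their own median removes variation between libraries that they share, and places members on both sides of 0.

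**Figure D3:**
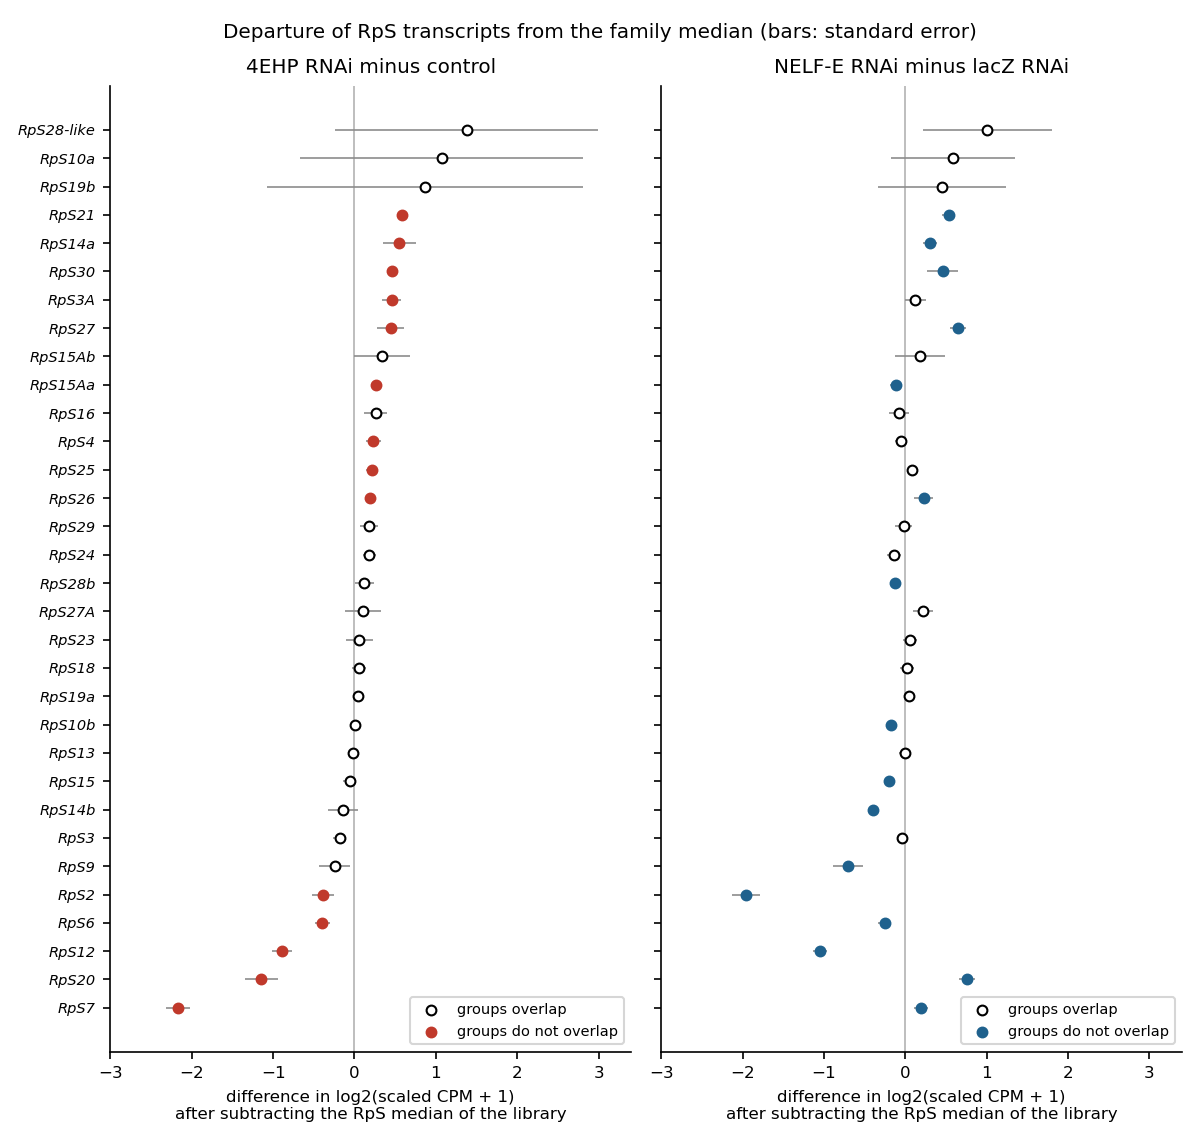
Departure of 32 of the 37 tested RpS transcripts from the family median of the same library, as the difference of group means in log2(scaled CPM + 1), with its standard error (n = 3 libraries a group). Filled points mark groups that do not overlap, and transcripts keep 1 order in both panels, from *RpS7* at −2.17 to *RpS28-like* at 1.38 on the left.

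*RpS7*, a body protein needed in yeast and human cells to process the precursor of the 18S RNA, lay furthest below the family after *4EHP* RNAi. Control replicates 1, 2 and 3 held 1031, 1189 and 1990 CPM of it. The *4EHP* RNAi libraries held 315, 558 and 463 CPM in the same order. The highest *4EHP* RNAi library lay well below the lowest control. Relative to the family *RpS7* was 4.50-fold lower (departure −2.17, standard error 0.15), and its departure stayed between −2.38 and −2.02 over 17 alternatives. The log2 fold change on scaled CPM was −2.22 (standard error 0.69, limma, Benjamini-Hochberg adjusted p = 0.336), and leaving out 1 library moved it to between −2.70 and −1.47. Without control replicate 3, at −1.47, the adjusted p was 0.0378, and with DESeq2, at −2.59, it was 0.0155. After *NELF-E* RNAi, *RpS7* was at 1312, 1599 and 1761 CPM, against 935, 1130 and 1402 CPM in *lacZ* RNAi, groups that overlapped. There its departure was 0.19 (standard error 0.08), small and above the family without overlap.

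*RpS2*, a body protein at the entry of the mRNA channel, was the transcript called after *NELF-E* RNAi. It was at 746, 698 and 950 CPM in *lacZ* RNAi replicates 1, 2 and 3 and at 232, 217 and 273 CPM in *NELF-E* RNAi replicates 1, 2 and 3. The 2 groups were far apart, and the *NELF-E* RNAi libraries lay close together. The log2 fold change on scaled CPM was −2.47 (standard error 0.45, adjusted p = 0.0219 from limma), which is a 5.54-fold lower level on that scale. With CPM as deposited the log2 fold change was −1.72, so its size depended on the scaling. On scaled CPM the adjusted p from limma was 0.118 without *lacZ* RNAi replicate 3. It was between 0.0747 and 0.111 without 1 of the *NELF-E* RNAi replicates. The log2 fold change in these fits on scaled CPM was between −2.54 and −2.28. Relative to the family *RpS2* was 3.90-fold lower (departure −1.96, standard error 0.17), with a range of −2.04 to −1.82 over 17 alternatives.

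After *4EHP* RNAi the position of *RpS2* was much closer to the family. It was at 670, 866 and 1170 CPM in controls and 710, 1289 and 1017 CPM in *4EHP* RNAi, groups that overlapped. Its departure there was −0.39 (standard error 0.14) without overlap.

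*RpS12*, a protein of the beak of the head that in *Drosophila* takes part in cell competition upstream of the transcription factor Xrp1, lay below the family in both comparisons. It was at 453, 581 and 889 CPM in controls and 370, 575 and 534 CPM in *4EHP* RNAi, with a departure of −0.89 (standard error 0.12). In *lacZ* RNAi it was at 379, 438.5 and 589.6 CPM and in *NELF-E* RNAi at 252, 292 and 247 CPM, with a departure of −1.05 (standard error 0.09). The groups overlapped in CPM in the first comparison and did not in the second. The log2 fold changes on scaled CPM were −0.94 (adjusted p = 0.695) and −1.56 (adjusted p = 0.146, both from limma), and DESeq2 gave 0.0035 for the second. The first was −1.44 without control replicate 1 and −0.20 without control replicate 3. The second was −2.07 without *lacZ* RNAi replicate 1, with an adjusted p of 0.00518 from limma. *Xrp1* itself was at 262, 193 and 180 CPM in controls and 308, 162 and 141 CPM in *4EHP* RNAi, and at 187, 293 and 129 CPM in *lacZ* RNAi and 250, 297 and 300 CPM in *NELF-E* RNAi, overlapping in both. *Irbp18*, the other gene read for the response to ribosomal protein loss, had log2 fold changes of 0.83 and 0.48. Its groups overlapped in scaled CPM in both, and limma in its main setting did not call it. Array weights called it higher in both, where 13.1% and 24.1% of all transcripts were higher.

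*RpS20*, a head protein near the point where *RpS3* and *RpS29* sit, left the family in opposite directions. It was at 399, 646 and 758 CPM in controls and 406, 404 and 338 CPM in *4EHP* RNAi. It was at 509.5, 577 and 659 CPM in *lacZ* RNAi and 998, 1164 and 1330 CPM in *NELF-E* RNAi. The first groups overlapped through control replicate 1, and the second did not overlap. Its departures were −1.14 (standard error 0.20) after *4EHP* RNAi and 0.75 (standard error 0.10) after *NELF-E* RNAi, and neither log2 fold change was called by limma, at −1.19 (adjusted p = 0.643) and 0.25 (adjusted p = 0.774). The first was −1.75 without control replicate 1 and −0.53 without control replicate 3, and the second ran from −0.22 without *lacZ* RNAi replicate 1 to 0.60 without *lacZ* RNAi replicate 2.

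*RpS9*, a body protein at the entry of the mRNA channel, was at 494, 570.5 and 779 CPM in *lacZ* RNAi and 366, 407 and 562 CPM in *NELF-E* RNAi. These groups overlapped in CPM, and the departure was −0.71 (standard error 0.18). After *4EHP* RNAi it was at 757, 1406 and 1290 CPM against 667, 850 and 1314 CPM in controls, with a departure of −0.24 (standard error 0.19) whose groups overlapped. Reads of the antisense RNA that shares exon with *RpS9* cannot be told apart from its own without strand.

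The 6 members above the family in both comparisons, among them *RpS14a*, *RpS21*, *RpS26*, *RpS27* and *RpS30*, are 54.5% of the *4EHP* list and 75% of the *NELF-E* list. Of all members tested, 21.6% lay above after *NELF-E* RNAi and 29.7% after *4EHP* RNAi. The share of all transcripts above in both was not computed, so the count has no background over all transcripts. *RpS27*, a small zinc-binding protein, was at 548, 668 and 813 CPM in controls and 1415, 1408 and 1158 CPM in *4EHP* RNAi. It was at 505, 566 and 645 CPM in *lacZ* RNAi and 980, 1036 and 1154 CPM in *NELF-E* RNAi. In both comparisons every RNAi library lay above every control in CPM as deposited, while on scaled CPM the groups overlapped, and the departures were 0.45 (standard error 0.16) and 0.64 (standard error 0.10). *RpS21*, whose loss in *Drosophila* larvae leads to overgrown blood-forming tissue, was at 369.5, 424 and 654 CPM in controls and 826, 1288 and 1005 CPM in *4EHP* RNAi, with a departure of 0.59 (standard error 0.07). In *lacZ* RNAi it was at 313, 382 and 434 CPM and in *NELF-E* RNAi at 561, 651 and 713 CPM, with a departure of 0.53 (standard error 0.08). *RpS30*, made as a fusion with a ubiquitin-like protein, had departures of 0.47 (standard error 0.06) and 0.46 (standard error 0.19).

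The 4 members below the family in both, among them *RpS2*, *RpS12* and *RpS6*, are 66.7% of the *4EHP* list and 40% of the *NELF-E* list. Of all 37 members, 27.0% lay below after *NELF-E* RNAi and 16.2% after *4EHP* RNAi. The share of all transcripts below in both was not computed, so the count has no background over all transcripts. *RpS6*, a body protein phosphorylated by S6 kinase, had departures of −0.40 (standard error 0.09) and −0.26 (standard error 0.08). *RpS7* and *RpS20* lay below after *4EHP* RNAi and above after *NELF-E* RNAi, and *RpS15Aa* lay above and then below. Across the 37 members the departures of the 2 comparisons, which share no library, had a Pearson r of 0.41 and a Spearman rho of 0.63, and across the 31 main forms 0.22 and 0.49. These are descriptions across genes, which are not independent replicates.

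**Figure D4:**
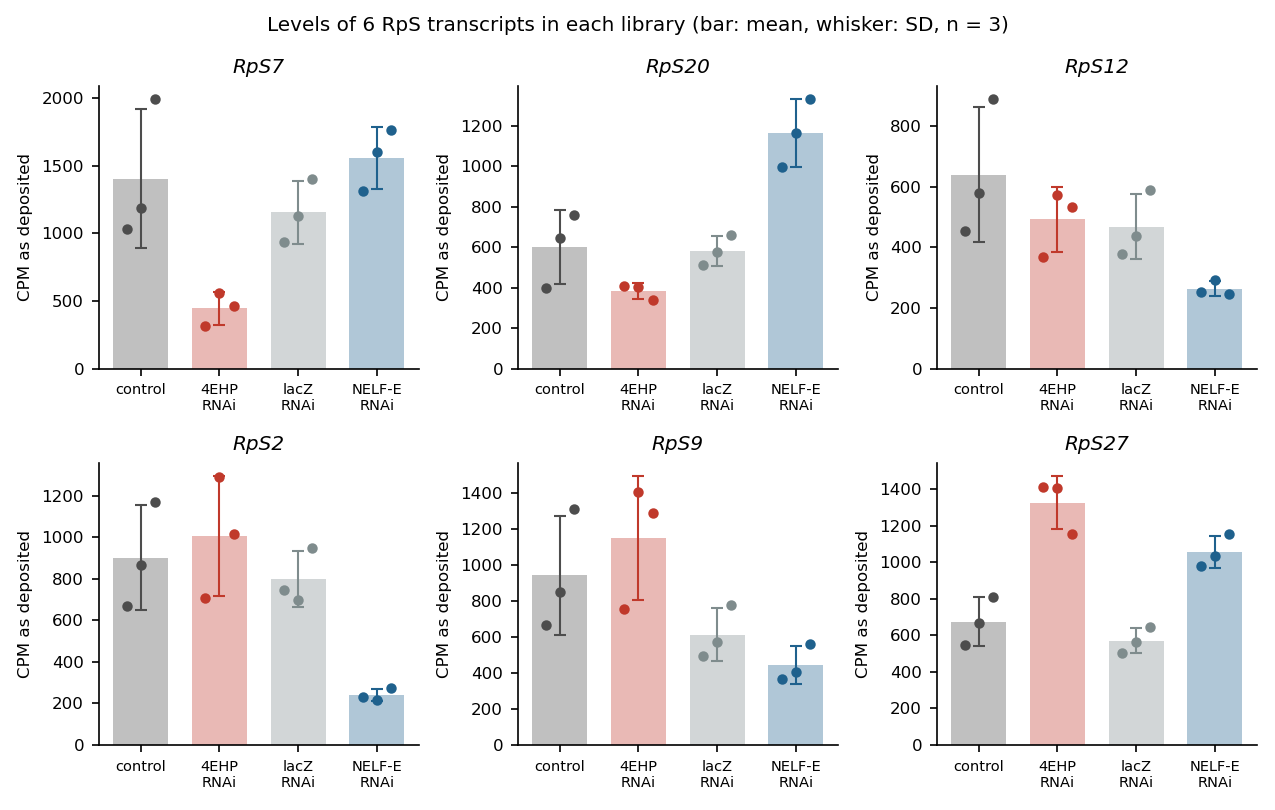
CPM as deposited of *RpS7*, *RpS20*, *RpS12*, *RpS2*, *RpS9* and *RpS27* in the 12 RNA-seq libraries (points: libraries, bar: mean, whisker: SD, n = 3). *RpS7* is lowest in *4EHP* RNAi, at 315 to 558 CPM, *RpS2* in *NELF-E* RNAi, at 217 to 273 CPM, and *RpS20* is highest in *NELF-E* RNAi, at 998 to 1330 CPM.

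The members were also read by position in the subunit, with no test between positions. Body here means every member not on the list of head proteins. It therefore takes in *RpS28-like*, although *RpS28b* is on the head list. The departures of *RpS28-like* were 1.38 after *4EHP* RNAi and 1.01 after *NELF-E* RNAi, with overlap, and they enter the body medians. After *4EHP* RNAi the median departure was 0.12 for the 17 head members tested and 0.20 for the 20 body members. Without overlap, 2 head and 4 body members lay below and 2 head and 9 body members above. After *NELF-E* RNAi the medians were 0.02 and 0.09, with 4 head and 6 body members below and 2 and 6 above. *RpS10b*, a head protein that is marked with ubiquitin on stalled ribosomes in human cells, had departures of 0.01 (standard error 0.07) and −0.18 (standard error 0.01), and *RpS27A* had 0.11 (standard error 0.22) and 0.22 (standard error 0.12), with overlap except for *RpS10b* after *NELF-E* RNAi.

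In 6 sets, 13 genes share a number and differ by a letter or suffix. In each, 1 form carried most of the CPM. The lower form took 2.94 ± 2.48% (SD, n = 3 controls) of the RpS10 set (*RpS10a*), 24.3 ± 3.01% of the RpS14 set (*RpS14b*), 2.66 ± 0.81% of the RpS15A set (*RpS15Ab*) and 8.28 ± 7.34% of the RpS19 set (*RpS19b*). In the RpS28 set *RpS28-like* took 1.25 ± 1.13% and *RpS28a* 0.25 ± 0.22%. The wide spread of 4 of these came from 1 library.

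*RpS19b*, a form known for germline expression in *Drosophila*, and *RpS10a*, *RpS28a* and *RpS28-like* were lowest in control replicate 3 and next lowest in *lacZ* RNAi replicate 2. *RpS19b* stood at 111, 93.8 and 2.34 CPM over control replicates 1, 2 and 3 and at 88.0, 15.1 and 54.5 CPM in *lacZ* RNAi replicates 1, 2 and 3. *RpS10a* was at 38.9, 36.4 and 1.21 CPM and at 32.0, 5.69 and 19.4 CPM in the same libraries. The 2 libraries in which all 4 were lowest are those with the lowest sum of testis markers, and 8 of the 12 testis markers were over 1 CPM in control replicate 3 against all 12 in every other library.

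Across the 12 libraries the log2 level of these 4 forms had a Pearson r of 0.96 (*RpS10a*) to 0.98 (*RpS28-like*) with the log2 sum of the testis markers, and a Spearman rho of 0.50 (*RpS19b*) to 0.85 (*RpS28a*), as a description with libraries that share their groups. The part of testis RNA in their levels was not tested. The departures of the 3 that were tested carried standard errors of 0.76 to 1.94 and their groups overlapped. Without control replicate 3 those after *4EHP* RNAi turned below 0, to −0.63 for *RpS10a*, −1.07 for *RpS19b* and −0.21 for *RpS28-like*. *RpS14b* did not follow that order, at 138 CPM in control replicate 3, above its 85.9 and 92.6 CPM in replicates 1 and 2. Its Pearson r with the markers was −0.29 and its Spearman rho −0.45. *RpS15Ab* was lowest in the same libraries in the other order, at 16.6 CPM in *lacZ* RNAi replicate 2 and 19.7 CPM in control replicate 3. Its Pearson r was 0.60 and its Spearman rho 0.51.

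**Figure D5:**
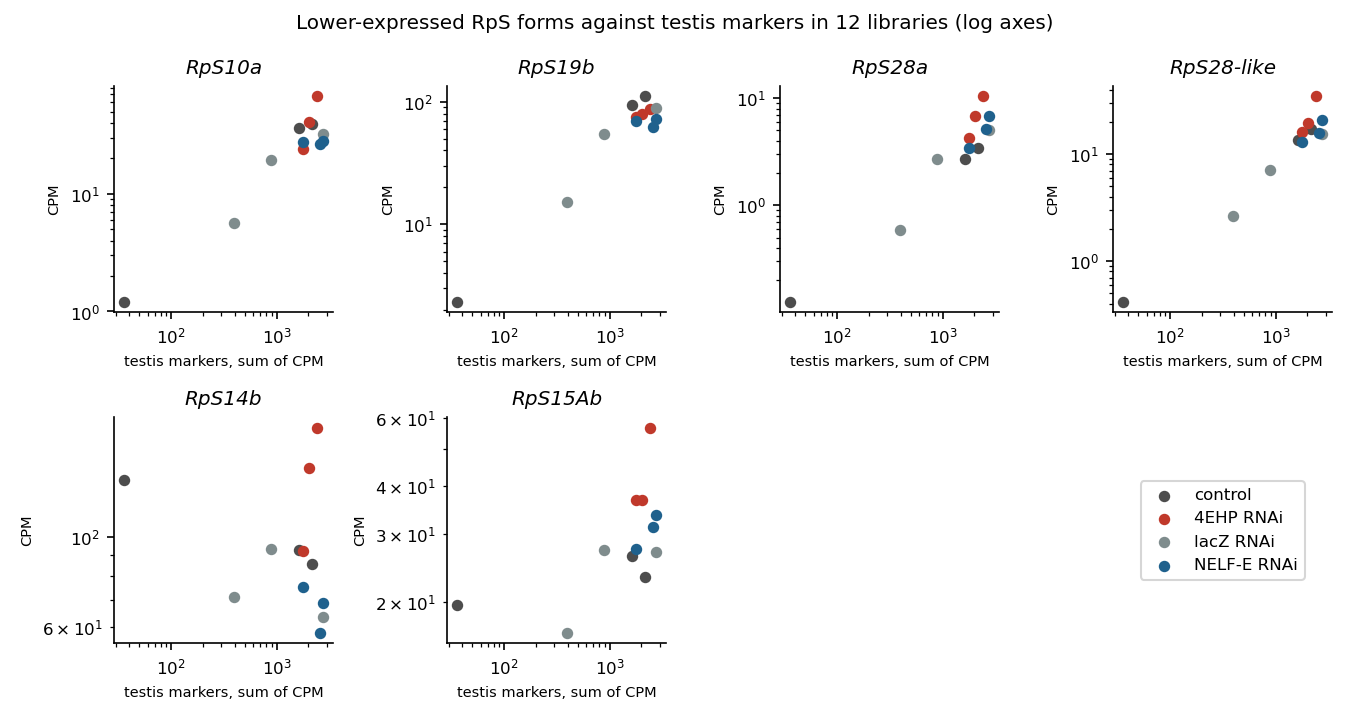
CPM of 6 lower-expressed RpS forms against the summed CPM of 12 testis markers, both on log axes, with 1 point for each of the 12 RNA-seq libraries. For *RpS10a*, *RpS19b*, *RpS28a* and *RpS28-like* the lowest point is control replicate 3 at 35.95 CPM of markers and the next is *lacZ* RNAi replicate 2 at 397 CPM. *RpS15Ab* is lowest in the same libraries in the other order, and *RpS14b* does not line up.

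*RpS14a* and *RpS14b* are tandem copies on X, at X:7933742-7934677 and X:7934898-7935792, that encode proteins of 151 residues each, in the platform of the body. *RpS14a* was at 241, 267 and 525 CPM in controls and 502, 942 and 695 CPM in *4EHP* RNAi, and *RpS14b* at 85.9, 92.6 and 138 CPM and at 92.3, 185 and 148 CPM. The share of *RpS14b* in the set was 24.3 ± 3.01% in controls and 16.5 ± 1.01% in *4EHP* RNAi (SD, n = 3), and 20.4 ± 1.07% in *lacZ* RNAi and 13.5 ± 1.25% in *NELF-E* RNAi. Both pairs of groups did not overlap, and the exact two-sided permutation p was 0.1 in each, the smallest that 3 libraries against 3 can give. How reads shared by near-identical copies were counted is not given in the sources used here, so the split between the 2 is uncertain. For the other 6 lower forms the groups overlapped in their share of the set in both comparisons, with exact permutation p values of 0.3 or more.

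The other genes of the subunit and its assembly came from short lists. *Rack1*, a scaffold protein on the head, lay below the RpS family in both comparisons. It was at 823, 1064 and 1492 CPM in controls and 450, 551 and 501 CPM in *4EHP* RNAi, and at 722, 890 and 976 CPM in *lacZ* RNAi and 345, 438 and 449 CPM in *NELF-E* RNAi. Its groups did not overlap in either, and relative to the RpS family it was 3.18-fold lower (departure −1.67, standard error 0.06) and 2.48-fold lower (departure −1.31, standard error 0.07). Its adjusted p from limma was 0.446 and 0.102. *sta*, the body protein known in other species as RpSA, was at 733, 961 and 1429 CPM in controls and 514, 1002 and 773 CPM in *4EHP* RNAi, and at 629, 613 and 927 CPM in *lacZ* RNAi and 1448, 1474 and 2055 CPM in *NELF-E* RNAi. Its departures of −0.98 (standard error 0.18) and 0.96 (standard error 0.20) had opposite signs and no overlap, like those of *RpS20*.

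Of 11 assembly factors of the small subunit, 10 lay above their controls in scaled CPM without overlap in each comparison, against 7.78% and 8.1% of all transcripts. In the control groups, 3 and 4 of the 11 averaged under 5 CPM and passed the filter through the RNAi group, and of the other 8 and 7 the groups did not overlap for 7 and 6. After *NELF-E* RNAi limma called 4 higher, where 1.99% of all transcripts were called higher, and 0 lower. Among them were *hoip* (3.86-fold, adjusted p = 0.0163) and *nop5* (2.83-fold, adjusted p = 0.0315), proteins of the box C/D snoRNA particle. The other 2, the kinase *RIOK1* and *wcd*, a factor of the early precursor, were among those under 5 CPM in *lacZ* RNAi, and with no filter *RIOK1* alone was called (1.23% of all transcripts higher). Without *NELF-E* RNAi replicate 1, 2 or 3, limma called 2 higher (0.925% of all transcripts), 1 (0.943%) and 0 (0.61%). Without *lacZ* RNAi replicate 1, 2 or 3, it called 6 (17.5%), 2 (2.06%) and 1 (0.744%). After *4EHP* RNAi limma and edgeR called 0, where neither called any transcript, and limma gave 8 higher at an unadjusted p under 0.05 (9.9% of all transcripts in either direction). DESeq2 called 5 higher (2.42%), array weights 9 (13.1%), and limma 6 without control replicate 3 (5.25%). *hoip* was at 12.5, 12.9 and 8.005 CPM in controls and 45.7, 84.7 and 60.4 CPM in *4EHP* RNAi. The exception in both comparisons was *LTV1*, with log2 fold changes of −0.27 and −0.49, which were above 0 with CPM as deposited.

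Markers of the fat body and of other tissues were read in the same libraries. The 8 fat body markers, all over 1 CPM in every library, summed to 242127 to 370340 CPM in controls and 146271 to 227212 CPM in *4EHP* RNAi, which did not overlap, and to 255014 to 362317 CPM in *lacZ* RNAi and 184324 to 274339 CPM in *NELF-E* RNAi, which did. In scaled CPM 3 of the 8 lay lower without overlap after *4EHP* RNAi (*Fbp1*, *Fbp2* and *Lsp1alpha*), where 11% of all transcripts did. After *NELF-E* RNAi 2 of the 8 did (*Fbp1* and *Fbp2*), where 17.7% of all transcripts did, so that count is near the background. The log2 fold changes of the 8 ran from −3.79 to 0.71 and from −3.91 to 0.07, and limma called 0 in either. The 6 muscle markers summed to 10.3 to 28.2 CPM in controls and 49.2 to 153 CPM in *4EHP* RNAi, the 6 gut markers to 0.68 to 10.8 and 26.7 to 332 CPM, and the 6 haemocyte markers to 27.9 to 58.3 and 65.7 to 83.0 CPM, all without overlap. These sums are in CPM as deposited, in which 23.5% of all transcripts lay higher without overlap. In scaled CPM, 7.78% of all transcripts did. Of the markers tested there, 6 of 6 muscle, 1 of 3 gut and 0 of 4 haemocyte markers did. Between *lacZ* RNAi and *NELF-E* RNAi, muscle (37.96 to 137 and 13.9 to 67.6 CPM), gut (0.21 to 43.1 and 0.23 to 106 CPM) and haemocyte markers (16.3 to 51.4 and 28.2 to 63.7 CPM) overlapped. Salivary gland markers overlapped in both comparisons. The part of other tissues in the RpS values was not tested.

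ADAR turns adenine into inosine, which sequencing reads as G, and editing in the TRIBE libraries was taken as G reads over A and G reads. The deposited table listed 59 pairs of site and RpS gene, in 24 of the 38 genes, out of 93909. By gene part, 33 lay in 3′ UTRs, 14 in 5′ UTRs and 5 in coding sequence, and *RpS29* held the most, with 8. The listed sites had been chosen by the authors on these libraries, and 99.9% of all listed sites had the higher G share in 4EHP-ADAR, so a direction at a listed site carries no information. With at least 20 reads in every library, 45 sites in 22 genes were tested with a quasi-binomial model, and 0 were called at an adjusted p under 0.05, where 0.0716% of 69874 sites were called higher in 4EHP-ADAR. At an unadjusted p under 0.05 there were 2, in *RpS23* and *RpS26*, where 1.22% of all sites had such a p. Fisher's exact test on pooled reads and limma on the logit each called 0, where they called 1.07% and 0.562% of all sites. No RpS site had a binding score over 10, which 0.395% of all listed pairs had. Median depth at RpS sites was 94 to 156 reads a library.

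Of the 5 RpS sites with the highest scores, all but that of *RpS30* had few G reads. The site with the highest score, 2.95, was in the 5′ UTR of *RpS23* at 2R:14216596, with 0, 4 and 4 G of 143, 226 and 192 reads in 4EHP-ADAR and 0 of 391 reads over the 3 libraries with the mutant, a count of 0 that allows up to 0.767% (counting error only). In the 5′ UTR of *RpS30*, at 3R:20850580, G made up 8.08 ± 3.33% in 4EHP-ADAR and 3.79 ± 3.99% in 4EHP W114A-ADAR (SD, n = 3), within the spread between libraries. The 3′ UTR sites of *RpS3* at 3R:23360020 and of *RpS21* at 2L:2856998 had 4 G of 118 and 3 G of 48 reads in 4EHP-ADAR and 0 of 85 and 0 of 37 in the mutant, and 1 or more of their libraries held under 20 reads. The coding site of *RpS28-like* at 2L:9437151 had 5 G of 615 and 0 of 294. *RpS12* had 1 listed site, in its 3′ UTR at 3L:13024750, with a score of 0.41.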

How the data were processed

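Fat body RNA-seq was processed by the authors with Seq-N-Slide, and their processing notes list STAR, featureCounts, DESeq2 and dm6. The authors deposited CPM values, reads on each gene scaled to the same total in every library, with no further factor. All values were whole multiples of 1 read to within 0.050 to 0.107 reads, so reads were recovered. For TRIBE, the authors trimmed with FLEXBAR, aligned with HISAT2 2.1.0, found sites with JACUSA and deposited read counts by base for every site, with a binding score that weighs the likelihood of editing in one construct against the other. How strand and shared reads were counted is not given in the sources used here. Columns of the control carry the name w1118 and were matched by group. Replicates were separate pools of larvae.

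Each comparison was fitted in its own table with limma 3.58.1 (R 4.3.3, trend) on log2(CPM / median-of-ratios factor + 1), with transcripts kept from a mean of 5 CPM upwards, with Benjamini-Hochberg adjustment over all transcripts and a threshold of 0.05. The study's own test was DESeq2, which needs counts, so edgeR 4.0.16 and DESeq2 1.42.0 (baseMean above 350) were run on the recovered reads as alternatives. The others were TMM, CPM as deposited, pseudocounts of 0.1 and 5, a minimum of 1 CPM or none, array weights, leaving out each library, and a replicate block. Scaling to the RpS median was added after seeing the data. Same-numbered libraries were not paired (correlations from −0.21 to 0.30). TRIBE sites whose libraries all held 20 or more A and G reads were fitted with a quasi-binomial model with moderated dispersion, floored at 1. Its columns name only the construct. Listed positions count from 0 and are given from 1. The upper limit of a 0 is 3 counts. The fits were tested on simulated data.

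Gene parts and exon lengths came from BDGP6.54 in dm6 coordinates, in which all 38 members were found. Named members were those the study names, forms sharing a number, the 3 largest departures each way, called members, the 3 highest and lowest levels and the 5 top sites. Others were named after their values were seen. The members and all lists were chosen with earlier results of these data known. Values of 5 members are not reported here by name, and counts and medians cover all members.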

Additional observations from a re-analysis of the deposited data

How the results depend on the processing

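Departures of members whose groups did not overlap mostly kept their sign. Over 17 alternatives, all 6 members below and 9 of 11 above the family after *4EHP* RNAi, and all 10 below and 8 above after *NELF-E* RNAi, did so, the exceptions being *RpS4* and *RpS26*. Most alternatives could hardly change a sign, so this count says little about how firm the departures are. Scaling nearly cancels in a departure, and groups that do not overlap keep their sign when any library is left out. Array weights, edgeR and DESeq2 were read from fitted values instead. Counts of calls did not hold. After *4EHP* RNAi, 1 member was lower with scaling to the RpS median (chosen after seeing the data), with array weights and with DESeq2, and 0 to 1 when a library was left out, and 6 were higher with array weights and 0 to 1 with a library left out. After *NELF-E* RNAi, the count of lower members was 0 with no filter, 25 with array weights, 3 with DESeq2, and 0 to 18 with a library left out, and 1 was higher with array weights. With the replicate block it was 2 (*RpS2* and *RpS12*), where 8.47% of all transcripts were lower, and same-numbered libraries did not deviate together, so they share only a number. The family median after *NELF-E* RNAi was 0.29 with CPM as deposited. Fitted directions depended on the scaling: 13 members were lower after *4EHP* RNAi and 32 after *NELF-E* RNAi, and 3 and 5 with CPM as deposited. Of 12 log2 fold changes (6 members in both comparisons), 6 changed sign under 1 or more alternatives. After *4EHP* RNAi, with CPM as deposited and with array weights, *RpS2* was 0.15 and 0.14 and *RpS9* was 0.29 and 0.42. With a library left out, *RpS2* ran from −0.92 to 0.24, *RpS9* from −0.80 to 0.44 and *RpS27* from −0.033 to 1.01. After *NELF-E* RNAi, *RpS7* was 0.44 with CPM as deposited and 0.20 with scaling to the RpS median, and *RpS20* and *RpS27* were −0.075 and −0.16 with array weights. With a library left out, *RpS7* ran from −0.83 to 0.032, *RpS20* from −0.22 to 0.60 and *RpS27* from −0.32 to 0.48. The cause was not tested. For TRIBE, 0 RpS sites were called under every alternative run. Depth of 59919651 reads or more a library leaves the spread between 3 libraries, not counting, as the limit.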

Other observations

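The 12 members that hold a snoRNA were read apart from the other 25 tested. After *4EHP* RNAi their median departure from the family was −0.03, with 5 below and 4 above it without overlap, against 0.19, with 1 below and 7 above, for the members without one. After *NELF-E* RNAi the medians were −0.04 and 0.06, with 4 below and 3 above against 6 below and 5 above. The split was made after the values were seen and was not tested.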
